A study of Homo sapiens with 8 samples.

Results

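The integrated stress response and the unfolded protein response were read through 40 genes: the transcription factor ATF4 with its targets in amino acid and serine synthesis, aminoacyl-tRNA synthetases, and the sensors, chaperones and degradation factors of the endoplasmic reticulum. They were taken as every probe set whose annotation gives one of the 40 symbols and no other on the Affymetrix human genome array used. Of these genes 38 had at least 1 probe set carrying their symbol alone, out of 11963 genes so named on the array, and together they had 56 probe sets. SESN2, a stress-induced regulator of growth signalling, had no probe set in the annotation used. MARS1, the methionyl-tRNA synthetase, had only 3 probe sets that also carry a microRNA symbol, and these were not used. They are among 6 probe sets set aside for carrying another symbol, and the rest belong to HSP90B1 and PHGDH. For 37 genes a probe set passed the filter on dim signals and was tested. CHAC1, an ATF4 target that degrades glutathione, did not pass it, with normalized log2 levels between 4.50 and 5.41.

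The samples are a human lung adenocarcinoma cell line of the non-small cell class, which the labels do not name, so what limits it as a model is not known. Cells received rosiglitazone together with carboplatin, rosiglitazone alone at 1 µM, carboplatin alone at 10 µM, or control treatment, called DMSO or control medium in the labels, for 24 h. For the combination the labels give no doses of their own. Rosiglitazone is a ligand of the nuclear receptor PPARγ, carboplatin is a drug that crosslinks DNA, and the series title concerns synergy between these drug classes. Each of the 4 groups has 2 arrays, and the labels do not say whether these came from separate cultures. Every p-value below therefore measures only the spread between arrays, which may be technical.

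Cells sense unfolded proteins in the endoplasmic reticulum through EIF2AK3 (PERK), ERN1 (IRE1) and ATF6. PERK and its sister kinases phosphorylate the initiation factor eIF2, which lowers general translation while ATF4 is translated more efficiently, and ATF4 then switches on genes for amino acid supply and tRNA charging. IRE1 splices the mRNA of XBP1, and spliced XBP1 and cleaved ATF6 switch on chaperones and degradation factors. Expression arrays of this kind read total mRNA, and do not measure phosphorylation, splicing or protein.

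Some members share short DNA motifs near their start sites. These are shown because they are the known landing sites of the 2 branches. Many members were chosen as known targets of these branches, so the shares beside all genes are description only. RefSeq promoter windows on GRCh38.p14, running from 250 bases before to 50 bases after a start site, were found for 37 of the 40 genes and searched on both strands. The ER stress element, a site bound with ATF6 and XBP1, was spelled CCAAT, 9 bases of any kind and CCACG. It was found in 5 members (CANX, HSPA5, HSP90B1, CALR and XBP1), and in 0.0916% of the 27305 genes with a window. The C/EBP-ATF response element, a site that ATF4 binds with C/EBP partners, was spelled TGATGNAA. It was found in 8 members (GARS1, ASNS, SLC3A2, MARS1, CHAC1, HERPUD1, AARS1 and NARS1), and in 4.46% of all genes with a window. Neither spelled motif contains the other. A match describes the letters in a window and is not a measured binding site. The stretches below are on the gene's strand, with the motif or its reverse complement in capitals.
HSPA5 chr9:125241371-125241429 (minus strand): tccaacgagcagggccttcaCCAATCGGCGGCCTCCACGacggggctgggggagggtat
HSP90B1 chr12:103930196-103930359 (plus strand): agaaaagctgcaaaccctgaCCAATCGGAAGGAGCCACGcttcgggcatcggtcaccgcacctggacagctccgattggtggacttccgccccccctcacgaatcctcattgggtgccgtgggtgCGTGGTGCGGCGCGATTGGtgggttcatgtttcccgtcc
CALR chr19:12938364-12938422 (plus strand): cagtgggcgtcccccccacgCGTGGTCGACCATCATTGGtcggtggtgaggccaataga
XBP1 chr22:28800583-28800641 (minus strand): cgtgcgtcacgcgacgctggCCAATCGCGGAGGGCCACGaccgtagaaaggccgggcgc
ASNS chr7:97872449-97872496 (minus strand): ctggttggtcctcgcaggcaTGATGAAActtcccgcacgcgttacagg
AARS1 chr16:70289666-70289713 (minus strand): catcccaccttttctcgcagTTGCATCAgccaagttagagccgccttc
HERPUD1 chr16:56931946-56931993 (plus strand): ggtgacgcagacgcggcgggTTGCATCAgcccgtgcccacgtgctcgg

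**Figure D1:**
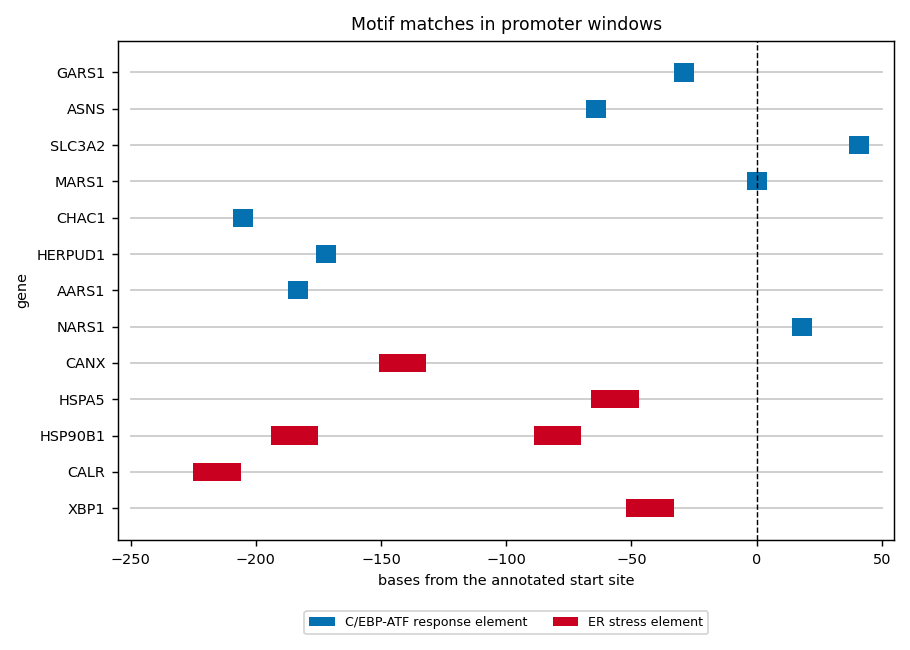
Position of each motif match in the promoter window of the 13 genes that have one, in bases from the RefSeq start site at the dashed line. Red bars are ER stress elements, which begin 66 bases upstream in HSPA5 and 52 in XBP1, and HSP90B1 has 2 of them, 194 and 89 bases upstream. Blue bars are C/EBP-ATF response elements, which begin 68 bases upstream in ASNS. Where a gene has several windows the first is drawn.

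The cells and arrays were checked first. The epithelial keratins KRT8, KRT18, KRT19 and KRT7 and the cadherin CDH1 were above the filter in mean level, while EPCAM (4.24 to 5.28) and the lung lineage factor NKX2-1 (4.25 to 5.40) were below it. Of the surfactant genes SFTPB and SFTPC were above it in mean, with SFTPC as low as 5.23. The leukocyte markers PTPRC, CD3D and CD14 and the endothelial markers PECAM1, VWF and CDH5 were below it in mean, though the highest arrays of PECAM1 (6.00), CD3D (5.57) and CD14 (5.52) were above it. Of 4 fibroblast markers COL1A1 and DCN were above it in mean and COL1A2 and COL3A1 below, with highest arrays of 5.95 and 5.74. As a mark of RNA quality, the 3′ over 5′ signal of control transcripts lay within 0.83 to 1.05 (GAPDH) and 0.94 to 1.39 (ACTB). Median deposited signals ran from 36.2 to 54.3 over the 8 arrays, which is why log2 values were normalized. Levels below are normalized log2(signal + 16) values, on which a difference of 1 is about a doubling, and understated for dim probe sets. Because probe sets differ in brightness, a level is set only against the same probe set in other arrays.

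None of the 37 member genes, each read at its brightest tested probe set, was called in any comparison. The test was limma's moderated test at a threshold of 0.05 after Benjamini-Hochberg adjustment across 13338 probe sets. In combination against control 0 members were called, against 0.225% of all probe sets, and 4 members had an unadjusted p under 0.05, which is 10.8% of the members beside 8.74% of all genes tested. In rosiglitazone against control 0 were called, against a background of 0.360%, and 4 had an unadjusted p under 0.05 (10.8% of members, 10.1% of all genes). In carboplatin against control 0 were called, against a background of 0.015%, and 5 had an unadjusted p under 0.05 (13.5% of members, 4.84% of all genes). Combination against carboplatin gave 0 members against 0.157% of probe sets, with 1 unadjusted (2.70% of members, 6.41% of all genes). Combination against rosiglitazone gave 0 against 0.0225%, with 2 unadjusted (5.41% and 3.97%). The rosiglitazone main effect, the mean difference between the 4 arrays with the drug and the 4 without it, gave 0 members against 0.885%, with 1 unadjusted (2.70% of members, 10.4% of all genes). The carboplatin main effect gave 0 against 0.030%, with 3 unadjusted (8.11% of members, 3.87% of all genes). The interaction, which asks whether the combination departs from the sum of the separate differences, gave 0 members against 0%, with 4 unadjusted (10.8% of members, 5.22% of all genes). The interaction and the main effects can be read this way only if the combination used the single-drug doses, which the labels do not say. A moderated F test of any difference among the groups gave 0 members against 0.510%, with 2 unadjusted, beside 7.79% of all probe sets. Where the background is this low, a count of 0 among 37 genes is near what the whole array gives.

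The intervals describe what could have been missed only as far as the spread between arrays goes. They are unadjusted and given per gene. If the 2 arrays of a group are technical repeats, the intervals hold no spread between cultures and do not bound a treatment effect. Differences of dim probe sets are also understated on this scale. The standard error of a member's difference between a pair of groups had a median of 0.17 and ran from 0.10 to 0.43. In each of the 5 pair comparisons 36 of 37 members had a 95% interval that lay within 2-fold in both directions. This is at the brightest tested probe set of each gene, beside 89.7% to 92.7% of all genes. The exception was TRIB3 in combination against control and ATF6 in the other 4. Other probe sets of some members had intervals beyond 2-fold. These include CALR at 0.52 to 1.08 with rosiglitazone, CANX at 0.05 to 1.86 with carboplatin and SEL1L at -1.48 to -0.06 in the combination. In rosiglitazone against control 22 members had an interval within 1.5-fold. The smallest differences called anywhere on the array were 0.52 in combination against control, 0.62 in rosiglitazone against control and 1.54 in carboplatin against control. For the interaction 30 of 37 members had an interval within 2-fold, beside 69.3% of all genes, and the standard errors had a median of 0.24. The comparisons with control all use the same 2 control arrays, so their values are given side by side and are not independent.

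**Figure D2:**
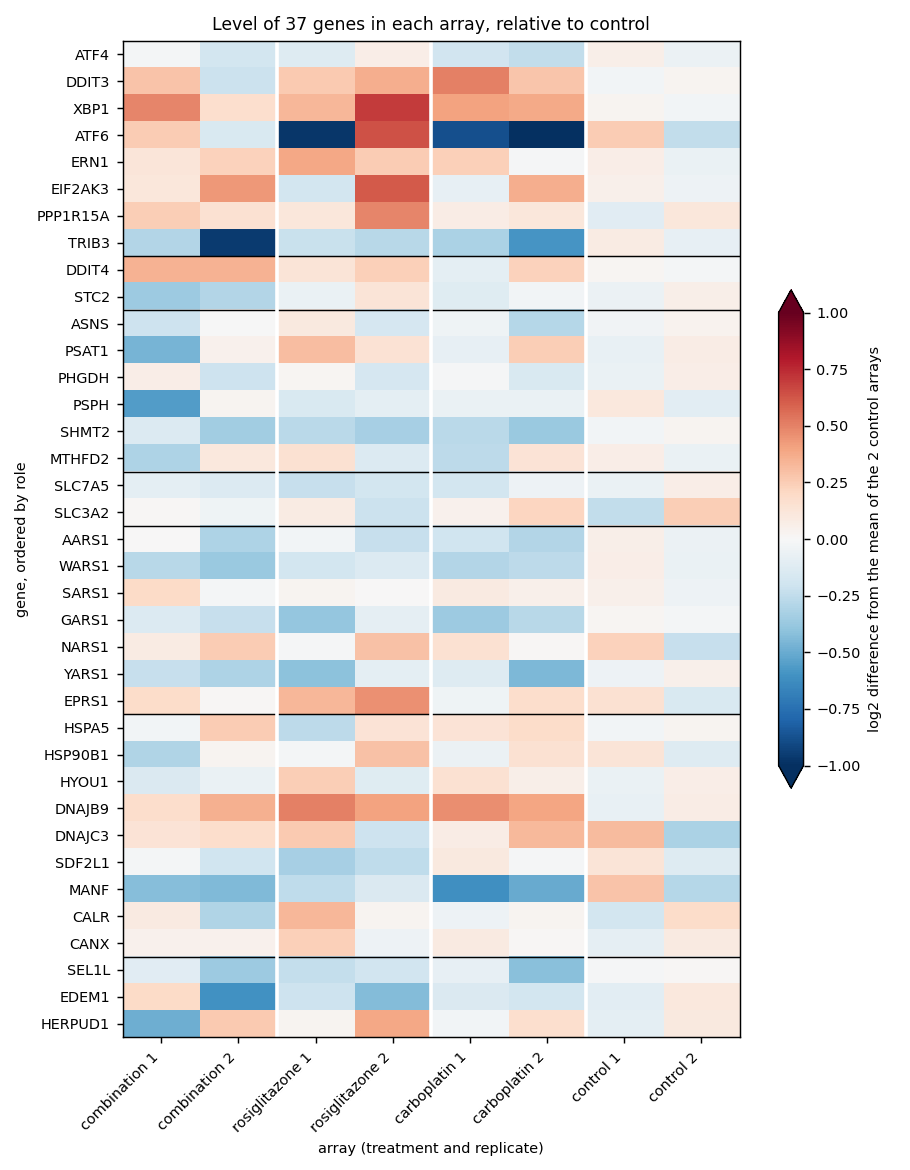
Normalized log2 level of each tested gene in each of the 8 arrays, as the difference from the mean of the 2 control arrays of the same probe set. Arrays run from combination through rosiglitazone and carboplatin to control, genes are ordered by role with black lines between roles, red is higher and blue lower, and differences beyond 1 in size are drawn in the end colours. The deepest colours belong to ATF6 and to TRIB3 in combination array 2, and most other cells lie between -0.5 and 0.5.

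The regulators are the sensors, the transcription factors and the factors that end the response. ATF4 (chr22:39520559-39522686) had levels of 10.37 and 10.21 in the combination arrays, 10.26 and 10.46 in rosiglitazone, 10.20 and 10.14 in carboplatin, and 10.45 and 10.33 in control. Both carboplatin arrays lay below both control arrays, and the other treatments overlapped control. The difference was -0.10 ± 0.12 (SE) in combination against control, -0.03 ± 0.12 in rosiglitazone against control and -0.22 ± 0.12 in carboplatin against control, and the 95% interval of the combination was -0.36 to 0.16. ATF4 protein is set largely by translation, so its mRNA level is only part of its activity.

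DDIT3 (CHOP), a factor that promotes cell death under lasting stress, read 6.83 and 6.33 in the combination, 6.81 and 6.91 in rosiglitazone, 7.05 and 6.82 in carboplatin, and 6.52 and 6.57 in control. Both arrays of each single drug lay above both control arrays, while the combination arrays lay on either side of control. The differences were 0.03 ± 0.21 in combination, 0.32 ± 0.21 in rosiglitazone and 0.39 ± 0.21 in carboplatin against control. Its interaction was -0.67 (95% interval -1.31 to -0.03, limma adjusted p = 0.821).

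XBP1 levels were 6.76 and 6.44 in the combination, 6.60 and 6.97 in rosiglitazone, 6.67 and 6.65 in carboplatin, and 6.30 and 6.24 in control. All 6 treated arrays were above both control arrays. The difference from control was 0.33 ± 0.20 for the combination, 0.52 ± 0.20 for rosiglitazone (limma adjusted p = 0.417) and 0.39 ± 0.20 for carboplatin. The probe set measures total XBP1 mRNA and cannot tell the spliced form apart.

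ATF6 was the most variable member. Its levels were 6.29 and 5.89 in the combination, 5.07 and 6.68 in rosiglitazone, 5.16 and 5.02 in carboplatin, and 6.29 and 5.79 in control. The rosiglitazone arrays spanned more than the whole control and combination range, while both carboplatin arrays were lower than all control and combination arrays. The difference was 0.05 ± 0.43 in combination against control, -0.16 ± 0.43 in rosiglitazone against control, -0.94 ± 0.43 in carboplatin against control and 1.00 ± 0.43 in combination against carboplatin (limma adjusted p = 0.753). A second ATF6 probe set gave -0.32 ± 0.33 in carboplatin against control, with carboplatin arrays at 5.01 and 6.03 that overlapped control at 5.89 and 5.80. Both probe sets read near the filter level of 5.38.

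TRIB3 (chr20:380760-397559), a pseudokinase induced by ATF4 and CHOP that restrains them in turn, was the regulator with the smallest p in combination against control. Its levels were 8.86 and 8.19 in the combination, 8.93 and 8.87 in rosiglitazone, 8.83 and 8.56 in carboplatin, and 9.23 and 9.07 in control. Every treated array lay below both control arrays, and the 4 arrays with carboplatin lay below the 4 without it. The combination differed from control by -0.63 ± 0.20, a ratio of 0.647 (95% interval -1.07 to -0.19 in log2, limma adjusted p = 0.376). The values against control were -0.25 ± 0.20 for rosiglitazone and -0.46 ± 0.20 for carboplatin, and the carboplatin main effect was -0.42 ± 0.14 (limma adjusted p = 0.997). The 2 combination arrays differ from each other by more than either drug's mean differs from control.

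The other regulators were the kinases ERN1, with levels from 5.81 to 6.27 over the 8 arrays, and EIF2AK3, from 5.60 to 6.39, and PPP1R15A, the phosphatase subunit that reverses eIF2 phosphorylation, from 7.39 to 7.99. ERN1 averaged 6.05 ± 0.08 in the combination, 6.20 ± 0.10 in rosiglitazone, 6.00 ± 0.18 in carboplatin and 5.88 ± 0.10 in control (SD, n = 2 each). PPP1R15A averaged 7.70 ± 0.06, 7.80 ± 0.26 and 7.60 ± 0.03 in those treatments and 7.50 ± 0.16 in control. A second PPP1R15A probe set differed from control by 0.18 ± 0.17 in both the combination and rosiglitazone. With carboplatin it had the opposite sign to the first, at -0.26 ± 0.17 beside 0.10 ± 0.17. It was 0.44 ± 0.17 in combination against carboplatin (limma adjusted p = 0.690), beside 0.10 ± 0.17 for the first. Of the 8 regulators 6 were higher in combination against control, 5 in rosiglitazone against control and 5 in carboplatin against control, with medians of 0.12, 0.26 and 0.11. The medians over all 8030 genes were -0.02, -0.03 and -0.02.

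Of the ATF4 targets in growth and secretion, DDIT4 (REDD1), an inhibitor of the growth kinase mTORC1 that DNA damage also induces, was at 9.01 and 9.01 in the combination, 8.79 and 8.90 in rosiglitazone, 8.56 and 8.89 in carboplatin, and 8.68 and 8.64 in control. The combination arrays were above the other 6. The combination differed from control by 0.35 ± 0.14 (limma adjusted p = 0.535), rosiglitazone by 0.19 ± 0.14 and carboplatin by 0.06 ± 0.14. Among the members' brightest probe sets, that of DDIT4 also had the smallest p for the rosiglitazone main effect (0.24 ± 0.10, limma adjusted p = 0.462). Its level in the combination was 0.29 ± 0.14 above carboplatin alone.

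STC2, a secreted glycoprotein induced through PERK, read 7.08 and 7.15 in the combination, 7.38 and 7.57 in rosiglitazone, 7.32 and 7.42 in carboplatin, and 7.39 and 7.50 in control. The combination arrays were the lowest of the 8. Differences from control were -0.33 ± 0.16, 0.03 ± 0.16 and -0.08 ± 0.16 for combination, rosiglitazone and carboplatin, and the combination was -0.36 ± 0.16 against rosiglitazone (limma adjusted p = 1). The second STC2 probe set gave -0.01 ± 0.23 in combination against control, with combination arrays at 7.59 and 6.86.

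Among the enzymes of amino acid and serine synthesis, SHMT2 (chr12:57229711-57234935), which makes glycine from serine in mitochondria, had the smallest p over the groups. Its levels were 10.07 and 9.86 in the combination, 9.94 and 9.88 in rosiglitazone, 9.94 and 9.84 in carboplatin, and 10.18 and 10.24 in control. All 6 treated arrays were below both control arrays. The difference was -0.25 ± 0.12 in combination, -0.30 ± 0.12 in rosiglitazone (limma adjusted p = 0.406) and -0.32 ± 0.12 in carboplatin (limma adjusted p = 0.927) against control. With the deposited scaling the rosiglitazone value was -0.05 (limma adjusted p = 0.991). The other SHMT2 probe sets gave -0.05 ± 0.15 and -0.51 ± 0.24 in rosiglitazone against control.

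PSAT1, the aminotransferase of the serine pathway, was at 8.89 and 9.40 in the combination, 9.66 and 9.50 in rosiglitazone, 9.27 and 9.60 in carboplatin, and 9.28 and 9.43 in control. Its combination arrays were 0.43 ± 0.18 below rosiglitazone alone (log2 difference -0.43, limma adjusted p = 1) with no overlap, and overlapped control. Of the remaining enzymes only ASNS, with carboplatin, had both arrays clear of control, below it. ASNS, asparagine synthetase, ran from 8.20 to 8.58, PHGDH, the first enzyme of the serine pathway, from 7.20 to 7.48, PSPH, its last, from 5.20 to 5.86, and MTHFD2, a mitochondrial folate enzyme, from 9.07 to 9.53. ASNS averaged 8.38 ± 0.14 in the combination, 8.45 ± 0.18 in rosiglitazone, 8.32 ± 0.17 in carboplatin and 8.48 ± 0.05 in control (SD, n = 2 each). All 6 enzymes had negative differences in combination against control, from -0.26 to -0.07, and for none did the 95% interval exclude 0.

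The amino acid transporter of this group is a pair, SLC7A5 (LAT1) and its heavy chain SLC3A2. SLC7A5 levels were 11.12 and 11.08 in the combination, 10.99 and 11.04 in rosiglitazone, 11.04 and 11.17 in carboplatin, and 11.15 and 11.29 in control. Its combination and rosiglitazone arrays lay below both control arrays, by -0.12 ± 0.10 and -0.20 ± 0.10, and carboplatin (-0.11 ± 0.10) overlapped control. SLC3A2 ran from 8.59 to 9.08, with both extremes in control.

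Aminoacyl-tRNA synthetases attach amino acids to their tRNAs, and several are ATF4 targets. GARS1 (chr7:30594735-30634033), the glycine enzyme, had levels of 10.95 and 10.86 in the combination, 10.70 and 11.00 in rosiglitazone, 10.73 and 10.81 in carboplatin, and 11.11 and 11.07 in control. All treated arrays were below both control arrays. Differences from control were -0.19 ± 0.11 for the combination, -0.24 ± 0.11 for rosiglitazone and -0.32 ± 0.11 for carboplatin (limma adjusted p = 0.927). With the deposited scaling the rosiglitazone value was 0.01, so its sign depends on normalization.

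WARS1, the tryptophan enzyme, was at 8.58 and 8.49 in the combination, 8.68 and 8.72 in rosiglitazone, 8.57 and 8.60 in carboplatin, and 8.93 and 8.79 in control. Treated arrays were all below control, and the 4 arrays with carboplatin below the 4 without it. The combination differed from control by -0.33 ± 0.13 (limma adjusted p = 0.524), rosiglitazone by -0.16 ± 0.13 and carboplatin by -0.27 ± 0.13. A second WARS1 probe set had the opposite sign, at 0.04 ± 0.18, 0.20 ± 0.18 and 0.24 ± 0.18. WARS1 is also known as an interferon-induced gene.

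YARS1, the tyrosine enzyme, was at 9.64 and 9.56 in the combination, 9.46 and 9.77 in rosiglitazone, 9.74 and 9.42 in carboplatin, and 9.82 and 9.92 in control. Its 6 treated arrays were below both control arrays, by -0.27 ± 0.15, -0.26 ± 0.15 and -0.29 ± 0.15 in combination, rosiglitazone and carboplatin. EPRS1 charges glutamate and proline tRNAs. It read 9.40 and 9.23 in the combination, 9.55 and 9.67 in rosiglitazone, 9.17 and 9.39 in carboplatin, and 9.37 and 9.06 in control, and only the rosiglitazone arrays were clear of control, above it. The rosiglitazone difference was 0.39 ± 0.14 (limma adjusted p = 0.383), beside 0.10 ± 0.14 in the combination and 0.07 ± 0.14 in carboplatin. Its p was the smallest in rosiglitazone against control among the members' brightest probe sets. The 3 EPRS1 probe sets did not share a sign in rosiglitazone against control, at 0.39, 0.52 and -0.20. Of the others, AARS1, the alanine enzyme, ran from 10.32 to 10.69, NARS1, for asparagine, from 9.70 to 10.22, and SARS1, for serine, from 9.11 to 9.35. Over the 7 tested enzymes 3 were higher and 4 lower in each comparison with control.

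Chaperones of the reticulum fold secreted proteins. HSPA5 (BiP, chr9:125234853-125241343), the Hsp70 that also holds the sensors inactive and is the usual readout of reticulum stress, was at 10.62 and 10.90 in the combination, 10.39 and 10.79 in rosiglitazone, 10.79 and 10.83 in carboplatin, and 10.62 and 10.68 in control. Carboplatin arrays lay above control and the other treatments overlapped it. The difference from control was 0.11 ± 0.14 for the combination (95% interval -0.20 to 0.42), -0.06 ± 0.14 for rosiglitazone (-0.37 to 0.25) and 0.17 ± 0.14 for carboplatin (-0.14 to 0.48).

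MANF (chr3:51385291-51389397), a secreted protein that binds BiP and is induced by reticulum stress, had the smallest p in the F test among the members' brightest probe sets (limma adjusted p = 0.595). Its levels were 8.65 and 8.63 in the combination, 8.82 and 8.93 in rosiglitazone, 8.46 and 8.57 in carboplatin, and 9.36 and 8.79 in control. All 4 arrays with carboplatin were below the 4 without it, while the control arrays differed from each other by about as much as the carboplatin mean differed from the control mean. The difference from control was -0.44 ± 0.17 for the combination (limma adjusted p = 0.525), -0.20 ± 0.17 for rosiglitazone and -0.56 ± 0.17 for carboplatin (limma adjusted p = 0.879). The carboplatin main effect was -0.40 ± 0.12 (limma adjusted p = 0.997).

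DNAJB9 (ERdj4, chr7:108569874-108574850), a co-chaperone of BiP and a target of XBP1, had the opposite sign. It was at 6.95 and 7.13 in the combination, 7.28 and 7.18 in rosiglitazone, 7.24 and 7.17 in carboplatin, and 6.70 and 6.85 in control. Every treated array was above both control arrays. The difference was 0.27 ± 0.17 in combination, 0.46 ± 0.17 in rosiglitazone (limma adjusted p = 0.386) and 0.43 ± 0.17 in carboplatin (limma adjusted p = 0.927) against control. Its interaction, of smallest p there among the members' brightest probe sets, was -0.62 ± 0.24 (95% interval -1.15 to -0.10, limma adjusted p = 0.821). The combination mean was below the mean of either drug alone.

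SDF2L1, a partner of the ERdj proteins, was at 8.17 and 7.99 in the combination, 7.86 and 7.94 in rosiglitazone, 8.29 and 8.18 in carboplatin, and 8.32 and 8.06 in control. Rosiglitazone arrays were below all others, by -0.29 ± 0.15 against control (limma adjusted p = 0.548). HSP90B1 (GRP94), the Hsp90 of the reticulum, ran from 8.52 to 9.11, HYOU1, a large Hsp70 relative, from 8.74 to 9.13, and DNAJC3 (p58IPK), an inhibitor of eIF2 kinases and BiP partner, from 5.52 to 6.16. HSP90B1 averaged 8.68 ± 0.23 in the combination, 8.95 ± 0.22 in rosiglitazone, 8.86 ± 0.15 in carboplatin and 8.82 ± 0.19 in control (SD, n = 2 each).

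The degradation factors were SEL1L, an adaptor of the membrane ubiquitin ligase, at 8.18 to 8.61, EDEM1, which marks misfolded glycoproteins by trimming sugars, at 6.16 to 6.96, and HERPUD1, a membrane partner of that ligase, at 7.46 to 8.34. SEL1L averaged 8.35 ± 0.18 in the combination, 8.38 ± 0.03 in rosiglitazone, 8.35 ± 0.23 in carboplatin and 8.60 ± 0.02 in control (SD, n = 2 each), and its 6 treated arrays were below both control arrays. The difference in combination against control was -0.25 for this probe set, and -0.77 ± 0.32 and 0.15 ± 0.23 for the other SEL1L probe sets. EDEM1 and HERPUD1 had combination arrays that spanned 6.16 to 6.96 and 7.46 to 8.21, wider than any difference between group means.

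**Figure D3:**
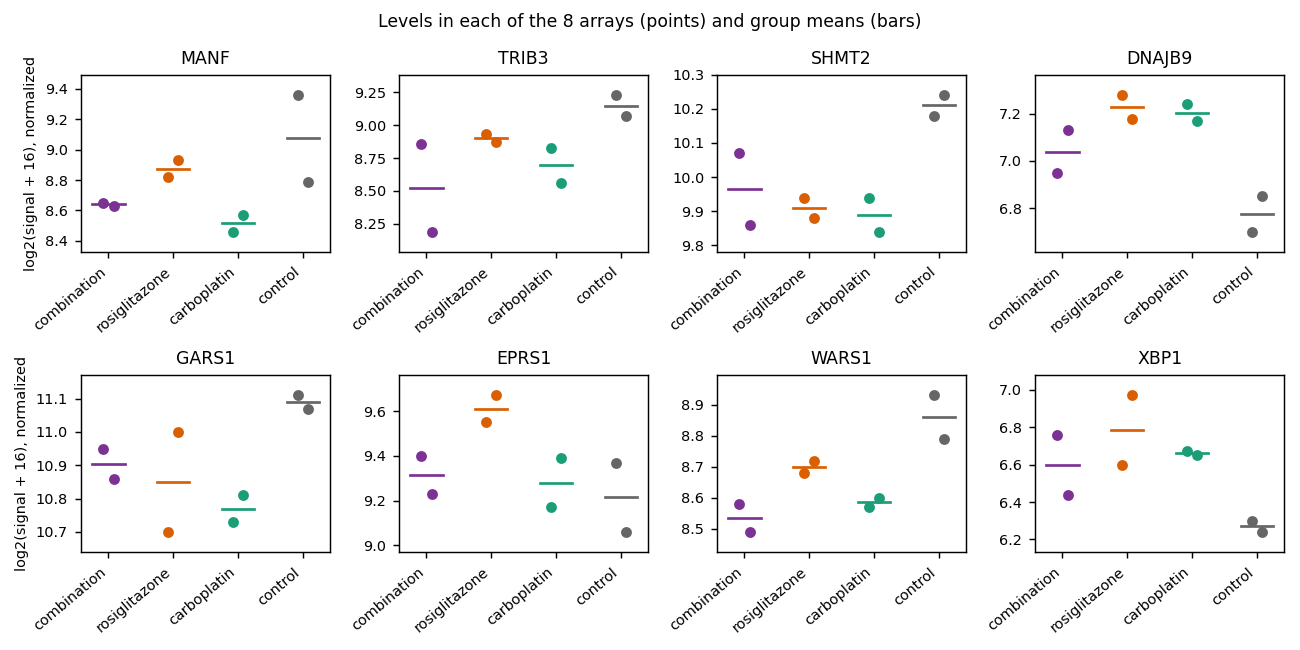
Normalized log2 level in each of the 8 arrays (points) with group means (bars) for the 8 members of smallest p in the F test, each panel with its own vertical scale that does not start at 0. Groups run from combination through rosiglitazone and carboplatin to control. MANF, TRIB3, SHMT2, GARS1 and WARS1 have lower treated means than control, and DNAJB9, EPRS1 and XBP1 higher ones.

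CALR and CANX, the calreticulin and calnexin lectins that hold new glycoproteins for folding, gave different answers by probe set. CALR (chr19:12938609-12944489) was read by 3 probe sets, and the second brightest of them, singled out after its values were seen, was the only one of 52 tested member probe sets to be called. Its levels were 9.90 and 9.89 in the combination, 10.15 and 9.92 in rosiglitazone, 9.70 and 9.76 in carboplatin, and 9.34 and 9.12 in control. It was higher by 0.80 ± 0.13 in rosiglitazone against control (1.74-fold, limma adjusted p = 0.0295) and by 0.48 ± 0.09 for the rosiglitazone main effect (limma adjusted p = 0.0298), and stood 0.66 ± 0.13 above control in the combination (limma adjusted p = 0.0722) and 0.50 ± 0.13 in carboplatin (limma adjusted p = 0.790). The call in rosiglitazone against control held in 7 of 18 alternative settings, and was lost without either rosiglitazone array (adjusted p = 0.271 and 0.0797 by limma) without either control array (0.0636 and 0.203) and without carboplatin array 1 (0.0506). The main effect call held in 6 of 17, and the adjusted p without 1 array was 0.123 for control 2, 0.136 for rosiglitazone 1, 0.128 and 0.0875 for the carboplatin arrays, and 0.0955 and 0.0852 for the combination arrays.

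The brightest CALR probe set, which represents the gene, was at 9.97 and 9.58 in the combination, 10.21 and 9.91 in rosiglitazone, 9.83 and 9.91 in carboplatin, and 9.70 and 10.06 in control. All groups overlapped, and the difference was -0.11 ± 0.17 in combination, 0.18 ± 0.17 in rosiglitazone and -0.01 ± 0.17 in carboplatin against control. The third gave -0.08 ± 0.23, -0.02 ± 0.23 and 0.06 ± 0.23. The files do not say which part of the transcript each probe set reads. For CANX the brightest probe set gave 0.04 ± 0.11, 0.10 ± 0.11 and 0.05 ± 0.11 in combination, rosiglitazone and carboplatin against control. The other CANX probe sets gave 0.26 ± 0.22 and 0.24 ± 0.41 in the combination, 0.40 ± 0.22 and 0.76 ± 0.41 with rosiglitazone, and 0.59 ± 0.22 and 0.96 ± 0.41 with carboplatin, and none was called.

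**Figure D4:**
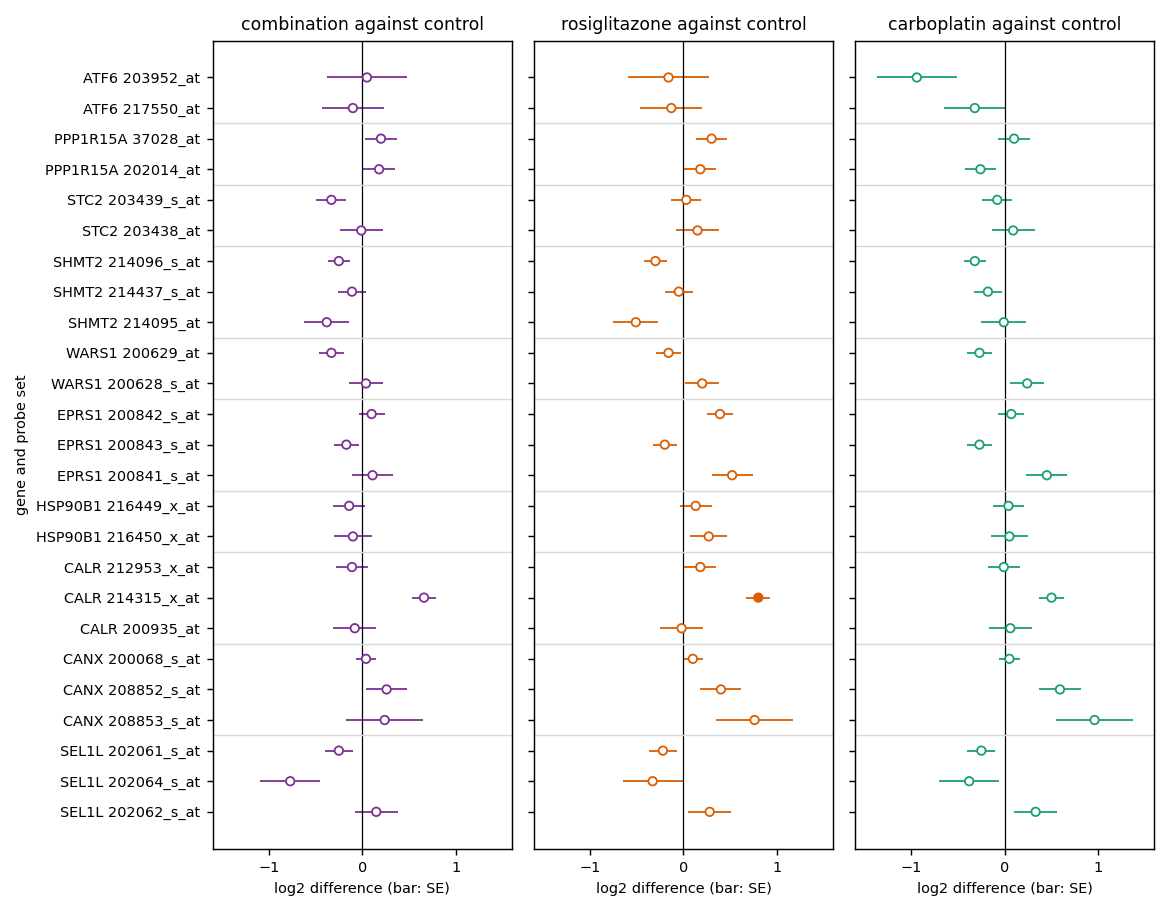
Log2 difference from control (points) with its standard error (bars) for every tested probe set of the genes read by more than 1, in combination, rosiglitazone and carboplatin, with the brightest probe set of each gene on top. The filled point is the 1 called value, the second CALR probe set at 0.80 with rosiglitazone, which the other CALR probe sets (0.18 and -0.02) do not share.

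Over the whole list the counts of higher and lower members moved with single arrays and with scaling. The median difference was -0.10 over 37 members and -0.02 over 8030 genes in combination against control, with 14 members higher and 23 lower. Without combination array 1 it was -0.05, and without combination array 2 it was -0.01 with 17 members higher. It was 0.01 and -0.03 in rosiglitazone against control, with 19 higher and 18 lower, and ran from -0.05 to 0.01 with 1 array left out. It was 0.04 and -0.02 in carboplatin against control, also with 19 and 18. There it was -0.06 with 13 higher without carboplatin array 2, 0.01 without carboplatin array 1, and -0.03 and -0.06 without control arrays 1 and 2. Both the deposited and the median scaling gave -0.04 with 12 members higher. The medians of all genes moved as well, to -0.06 with the deposited scaling and -0.07 with median scaling. For the carboplatin main effect the member median was -0.09 against 0 for all genes, with 29.7% of members higher (11 of 37), beside 48.9% of all genes. It was -0.03 with 14 higher without combination array 1 and -0.05 with 14 higher without combination array 2. It was -0.06 or -0.07 without any 1 of the other arrays and -0.04 with array brightness as a covariate. The deposited scaling gave -0.16 with 6 higher (all genes -0.10), and median scaling -0.10 with 10 higher (all genes -0.04). A filter at the 60th percentile gave -0.10 with 9 of 32 higher (all genes 0). With the deposited scaling the median of all genes itself moved to 0.20 in rosiglitazone against control, and 32 of 37 members were then higher, with a member median of 0.22. On that scaling single members shifted too, to 0.63 for EPRS1, 0.71 for DNAJB9 and 0.78 for XBP1.

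Arrays of the groups compared did not overlap for many members, as for many genes at 2 arrays a group. The share was 40.5% of members (15 of 37), against 38.1% of all genes, in combination against control. It was 45.9% (17 of 37) against 42.9% in rosiglitazone against control, and 43.2% (16 of 37) against 35.2% in carboplatin against control. For the carboplatin main effect, 4 arrays against 4, MANF, TRIB3 and WARS1 did not overlap, and all 3 were lower with carboplatin. This is 8.11% of members against 2.34% of all genes. For the rosiglitazone main effect, also 4 against 4, the share was 0% of members against 7.04% of all genes. Members stood at 29.7% against 35.1% of all genes in combination against carboplatin, and at 29.7% against 30.7% in combination against rosiglitazone. In bulk RNA, fewer cells of a kind and less RNA per cell cannot be told apart.

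**Figure D5:**
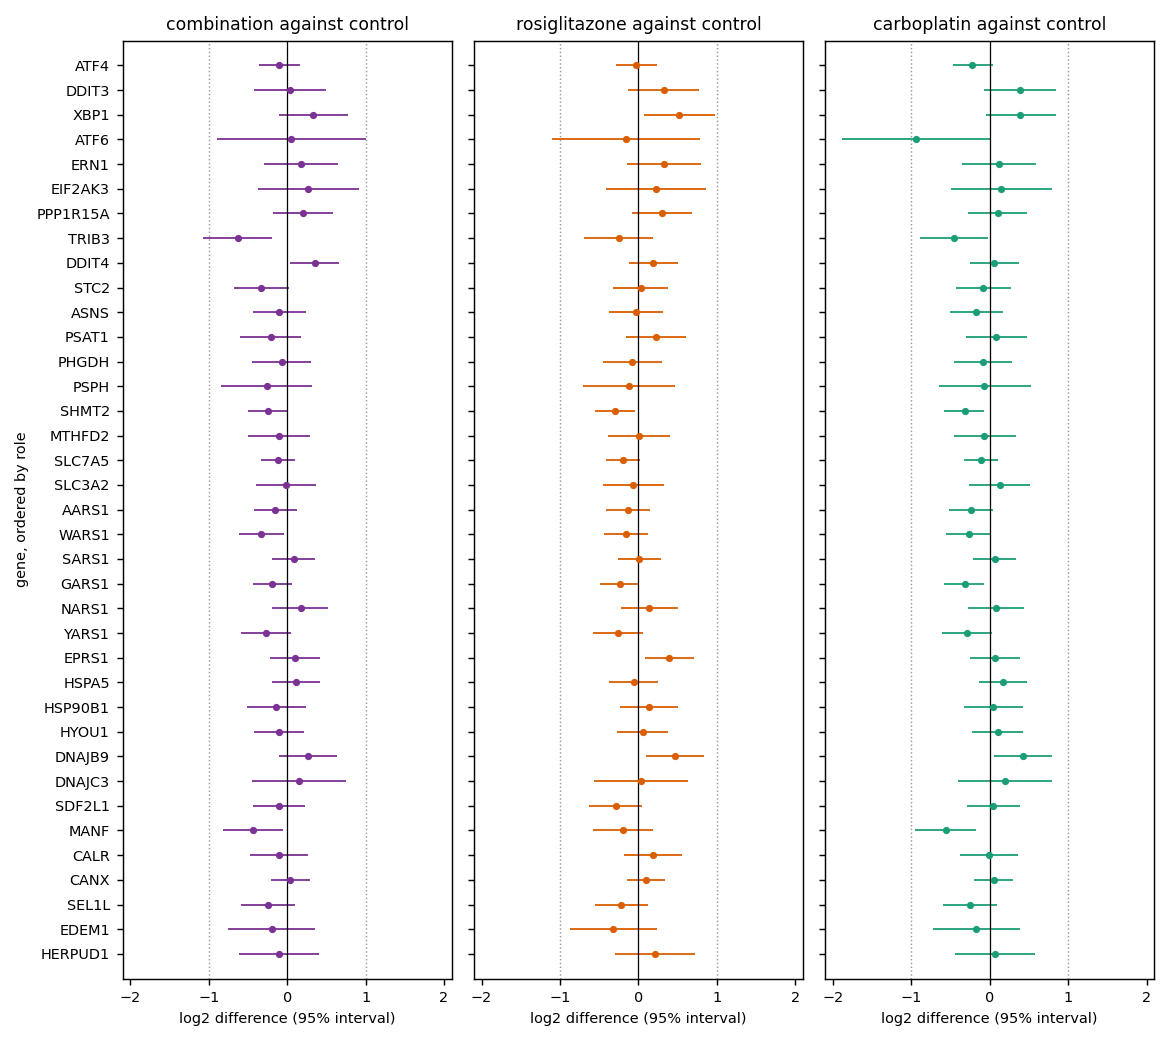
Log2 difference from control (points) with its 95% interval (bars) for the 37 members, ordered by role, in combination, rosiglitazone and carboplatin. Dotted lines mark 2-fold in either direction, which the interval of TRIB3 crosses in the combination and that of ATF6 in rosiglitazone and carboplatin.

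Other genes of these pathways, in 6 lists, were set beside the members. Among 30 tested genes of other ATF4 targets and amino acid transport, 2 rose in rosiglitazone against control. This is 6.67% of the list, beside 0.436% of the 8030 genes called in either direction. The list was chosen with earlier results of these data known, so its shares are description only. SQSTM1 (p62), a receptor of selective autophagy that NRF2 also induces, was at 11.55 and 11.57 in the combination, 11.70 and 11.80 in rosiglitazone, 11.09 and 11.19 in carboplatin, and 10.94 and 11.18 in control. The rise was 0.69 ± 0.10 in rosiglitazone against control (limma adjusted p = 0.0264) and 0.56 ± 0.07 for the main effect (limma adjusted p = 0.00421). JUN, an AP-1 factor that many stresses induce, was at 8.86 and 9.10 in the combination, 8.93 and 9.17 in rosiglitazone, 7.97 and 8.29 in carboplatin, and 8.12 and 8.10 in control. It rose by 0.94 ± 0.16 (limma adjusted p = 0.0404) and by 0.90 ± 0.11 for the main effect (limma adjusted p = 0.00302). When a gene's probe sets were averaged, the JUN difference in rosiglitazone against control was 0.46 and was not called (limma adjusted p = 0.411). CEBPB, a partner factor of ATF4, was called only for the rosiglitazone main effect, at 0.47 ± 0.08 (limma adjusted p = 0.0173). With JUN and SQSTM1, 10% of the list was called for that main effect, beside 1.07% of all genes. The calls against control were lost for SQSTM1 in 8 and for JUN in 10 of 19 alternative settings. For SQSTM1 these include the fits without control array 1 (adjusted p = 0.123 by limma), rosiglitazone array 1 (0.168) or rosiglitazone array 2 (0.110). For JUN they include the fits without either control array (0.156 and 0.214) or either rosiglitazone array (0.185 and 0.166). CEBPB lost its call without control array 1 (0.0752), rosiglitazone array 1 (0.0828), either carboplatin array (0.0623 and 0.0814) or combination array 2 (0.0680). In combination against control and in carboplatin against control 0 of the 30 genes were called by limma, with 6 and 5 at an unadjusted p under 0.05. These are 20% and 16.7% of the list, beside 8.74% and 4.84% of all genes.

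GDF15, a secreted stress cytokine that p53 also induces, was at 8.11 and 8.17 in the combination, 6.61 and 6.89 in rosiglitazone, 8.25 and 8.44 in carboplatin, and 7.26 and 7.29 in control. It rose by 1.39 ± 0.16 in combination against rosiglitazone (limma adjusted p = 0.0277) and by 1.23 ± 0.11 for the carboplatin main effect (limma adjusted p = 0.00218). In each, 3.33% of the list was called, beside 0.0249% and 0.0374% of all genes. Above control GDF15 stood 1.07 ± 0.16 with carboplatin (limma adjusted p = 0.163) and 0.87 ± 0.16 in the combination (limma adjusted p = 0.0682). Both rosiglitazone arrays lay below both control arrays. The main effect call of GDF15 was lost with the deposited scaling (limma adjusted p = 0.152). The call in combination against rosiglitazone held in 7 of 19 alternatives. It was lost without either combination array (adjusted p = 0.173 and 0.125 by limma), either rosiglitazone array (0.462 and 0.0634) or either control array (0.0711 and 0.0727). TNFRSF10B (DR5), a death receptor that CHOP and p53 induce, was 0.51 ± 0.15 above control with carboplatin (limma adjusted p = 0.879). JUN, SQSTM1, CEBPB and GDF15 are each induced by pathways other than ATF4, and these genes were not chosen without knowledge of earlier results.

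The other lists gave no call in any comparison with control. In these, 1 of 10 other synthetases and partners, 0 of 13 eIF2 kinase and eIF2 genes, 1 of 10 one-carbon enzymes, 4 of 37 other chaperones and folding factors and 1 of 19 degradation genes and sensors had an unadjusted limma p under 0.05 in rosiglitazone against control, beside 10.1% of all genes. In combination against control the same lists had 0, 0, 1, 2 and 0 such genes, beside 8.74% of all genes. In carboplatin against control they had 1, 2 (15.4%), 2 (20%), 3 (8.11%) and 0, beside 4.84% of all genes. CRELD2, a secreted ER stress target, had the smallest p among the chaperones, with differences of 0.76 ± 0.15 in combination (adjusted p = 0.0768), 0.73 ± 0.15 in rosiglitazone (0.0801) and 0.69 ± 0.15 in carboplatin (0.561) against control. FKBP2, a prolyl isomerase of the reticulum, was on the other side at -0.79 ± 0.18, -0.74 ± 0.18 and -0.82 ± 0.18. RARS1, the arginine synthetase, was at -0.25 ± 0.12, -0.38 ± 0.12 and -0.27 ± 0.12. Of the next synthetase genes by p, AIMP1, a scaffold of the synthetase complex, stood at 0.19 in combination, TARS1, for threonine, at -0.19 in rosiglitazone and CARS1, for cysteine, at -0.26 in carboplatin.

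EIF2AK1 (HRI), the kinase that relays haem and mitochondrial stress, was 0.24 ± 0.13 above control in the combination, 0.26 ± 0.13 in rosiglitazone and 0.31 ± 0.13 in carboplatin. NCK1, an adaptor linked to eIF2 dephosphorylation, was at -0.26 in combination, EIF2B3, a subunit of the exchange factor eIF2B, at -0.29 in rosiglitazone, and GCN1, the activator of the amino acid sensor GCN2, at -0.32 in carboplatin. GCSH, of the glycine cleavage system, was 0.50 ± 0.23, 0.73 ± 0.23 and 0.51 ± 0.23 above control in combination, rosiglitazone and carboplatin. ATIC, of purine synthesis, was at -0.26 in combination, MTHFD1, a cytosolic folate enzyme, at -0.22 in rosiglitazone and AMT, of the glycine cleavage system, at 0.75 in carboplatin. For degradation, DERL1, a channel component, was at 0.44 in combination and 0.49 in rosiglitazone, BCAP31 at 0.14 in combination, VCP, the segregase, at -0.25 in rosiglitazone, and OS9, a lectin, at 0.18 and CREB3L1, a stress sensor, at -0.28 in carboplatin. No adjusted p in these lists passed the threshold.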

How the data were processed

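Expression was measured in 8 samples on Affymetrix human genome expression arrays, 2 for each of 4 groups taken from the sample titles. The values are deposited intensity values, 1 linear signal per probe set. How they were computed and scaled is not given in the sources used here. Per the labels' protocols, first strands were primed with oligo-dT.

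Signals were taken as log2(signal + 16). Array medians spanned 0.43 on this scale, so values were quantile normalized. The 68 control probe sets and probe sets below the 40th percentile of mean level (5.38) were left out. Groups were compared with limma 3.58.1 in R 4.3.3 (4 residual and 7.1 prior degrees of freedom, intensity trend), two-sided, adjusted over all probe sets. The brightest tested probe set represented a gene, and intervals cover 95%. Only probe sets with 1 symbol were named. The fit was tested on simulated data. Arrays have no read depth, and their number limits the precision.

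The members, lists and tests were chosen with earlier results of these data known. The genes named are those called, up to 5 members of smallest p per comparison, and the 2 of smallest p per list against control. Values in every array are given for the 16 members of smallest F test p with ATF4, DDIT3, XBP1 and HSPA5, 18 genes in all.

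Alternatives were 2 other scalings, other pseudocounts and filters, no trend, array brightness as a covariate, the mean of a gene's probe sets, a fit of only the compared groups, replicate number as a block, and each array left out.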

Additional observations from a re-analysis of the deposited data

How the results depend on the processing

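The count of member genes called was 0 in all 167 recomputations over 19 alternative settings. Of 926 recomputed values of named genes 1 changed sign, GARS1 in rosiglitazone against control, at 0.01 with the deposited scaling. Counting single probe sets was chosen after seeing the data. That count, 1 in rosiglitazone against control, was 0 with the deposited scaling, median scaling, no filter, no intensity trend, array brightness as a covariate, or only the groups compared, and 0 to 1 with 1 array left out. For the rosiglitazone main effect the count of 1 was 0 with the same settings other than the last, which does not apply, and 0 to 1 with 1 array left out. The probe set concerned is the second brightest of CALR, whose rosiglitazone difference ran from 0.69 to 1.03. The replicate block left this difference at 0.80 and called, but ended the call of GDF15 in combination against rosiglitazone (adjusted p = 0.0601). Deviations of arrays with the same number correlated between -0.11 and 0.25. Such weak values cannot decide whether the numbers pair the samples, and the labels do not say. With 2 arrays a group no probe set with a difference below 0.52 was called in any comparison of a pair of groups, and dim probe sets such as those of ATF6 and CHAC1 are the least well measured. The cause of each lost call was not tested.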
